A study of Rattus norvegicus with 6 samples.

Results

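The region described here is an interval of rat chromosome 20 from base 1000000 to base 5200000 of the rn4 build, the place of the rat major histocompatibility complex (RT1) and its flank. It was chosen by position, after tiles whose cadmium and control ratios differed were found to cluster there, so the cadmium contrast of these samples selected it and is given below as a description only. The interval holds 1636 array probes of 4426 on chromosome 20 and of 172669 on the whole array. Of these, 1279 (78.2%) were kept, 131 were left out because the input was not well above background on every array, 224 because of an outlier spot, and 2 for both reasons. On the rest of chromosome 20, 2094 of 2790 probes (75.1%) were kept. All 1636 probes of the interval fell into 169 tiles, which are groups of probes whose neighbouring starts lie at most 1000 bases apart. Of these tiles, the 166 with at least 3 kept probes were analysed.

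The major histocompatibility complex is a dense cluster of immune genes. Its class I genes encode the molecules that show peptides from inside the cell to T cells, its class II genes those that present peptides taken up from outside, and its class III region holds complement and tumour necrosis factor genes. It is among the most polymorphic parts of a mammalian genome, and the class I genes occur as many near-identical copies, so a probe there can capture DNA of more than one copy. Which copy or allele each probe captured was not tested.

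The study asked whether a mother's cadmium exposure in pregnancy alters DNA methylation in the ovary of her daughters. Sprague Dawley dams were gavaged through gestation days 1 to 21, either with water as controls (0 mg/kg) or with cadmium chloride at 8 mg/kg, and DNA came from granulosa cells of their female offspring at 56 days of age. Granulosa cells, which surround the oocyte and make oestrogen, were released by puncturing follicles and passed through a strainer, with no sorting step described. Methylated DNA was captured with an antibody (methylated DNA immunoprecipitation, MeDIP), labelled red and hybridised to 2-colour arrays beside the unenriched input DNA of the same sample, labelled green. There were 3 control and 3 cadmium arrays. The sources used here do not say whether an array held 1 animal or a pool, or which animals shared a litter, so p-values measure only the spread between these samples. The cell type could not be checked against markers, because DNA arrays give no expression and the files used here name no genes.

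Values are log2 signals with each array's median over kept probes set to 0, either of the ratio of immunoprecipitated (IP) to input DNA, or of each channel alone. A higher ratio means more antibody-captured DNA relative to input, and is not a percentage of methylated cytosines. One library stood apart: over the interval's tiles the standard deviation of the ratio was 0.70 on cadmium replicate 2, against 0.99 to 1.06 on the other 5 arrays. By the scan dates in the file headers that array was scanned alone, while control 1, control 2 and cadmium 1 shared a scan session, and control 3 and cadmium 3 another. Input was above background for 92.1% to 98.7% of the interval's probes per array and the IP channel for 81.5% to 84.2%.

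As a whole and as measured, the interval had a slightly lower ratio than the rest of its chromosome and higher signal in both channels, but the size of the ratio gap and the sign of the IP difference depended on the processing. The control mean of the ratio was 0.0077 ± 0.053 (SD, n = 3) in the interval and 0.045 ± 0.063 on the rest of chromosome 20. With cadmium the means were 0.00084 ± 0.12 and 0.0065 ± 0.14 (n = 3 each). Within arrays the interval lay below the rest by a mean of 0.022, on 5 of 6 arrays (exact two-sided sign-flip permutation p = 0.0625). The smallest p that 6 arrays allow is 0.03125. The IP signal of the interval lay 0.19 above the rest and the input signal 0.21 above it, each on all 6 arrays (exact sign-flip permutation p = 0.03125 for both). With loess the ratio gap was -0.17, and with only probes above background in both channels it was -0.22 and the IP difference turned to -0.028. Probe length adjustment, described below, gave -0.17 for the ratio and -0.0064 for IP. Against the other autosomes, whose control ratio averaged -0.15, the interval's ratio was higher by 0.16 on average. These tests treat the same probes on every array as fixed and cover only the spread between arrays.

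The near-zero mean hid a gradient: the ratio was low over the first 2 steps of 1 Mb, and, as measured, above the rest of the chromosome over the remaining 3. The first step, from 1000000, had 281 kept probes and ratios of -0.86, -0.89 and -0.72 on the control arrays and -0.82, -0.70 and -0.72 on the cadmium arrays. The second step, from 2000000, had 145 kept probes and ratios of -0.58, -0.56 and -0.54 in controls and -0.53, -0.50 and -0.44 with cadmium. In both steps all 6 arrays were below 0, and the cadmium arrays overlapped the controls in the first step and lay slightly above them in the second. The third step, from 3000000, had 384 kept probes and ratios of 0.31, 0.36 and 0.42 in controls and 0.43, 0.13 and 0.47 with cadmium. The fourth step, from 4000000, had 362 kept probes and ratios of 0.39, 0.46 and 0.49 in controls and 0.45, 0.10 and 0.47 with cadmium. The fifth step, a short one from 5000000 to 5200000, had 107 kept probes and ratios of 0.14, 0.22 and 0.25 in controls and 0.34, 0.07 and 0.31 with cadmium. In these last 3 steps cadmium replicate 2 was the lowest array. In the third and the fifth step the other 2 cadmium arrays lay above all 3 controls.

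**Figure D1:**
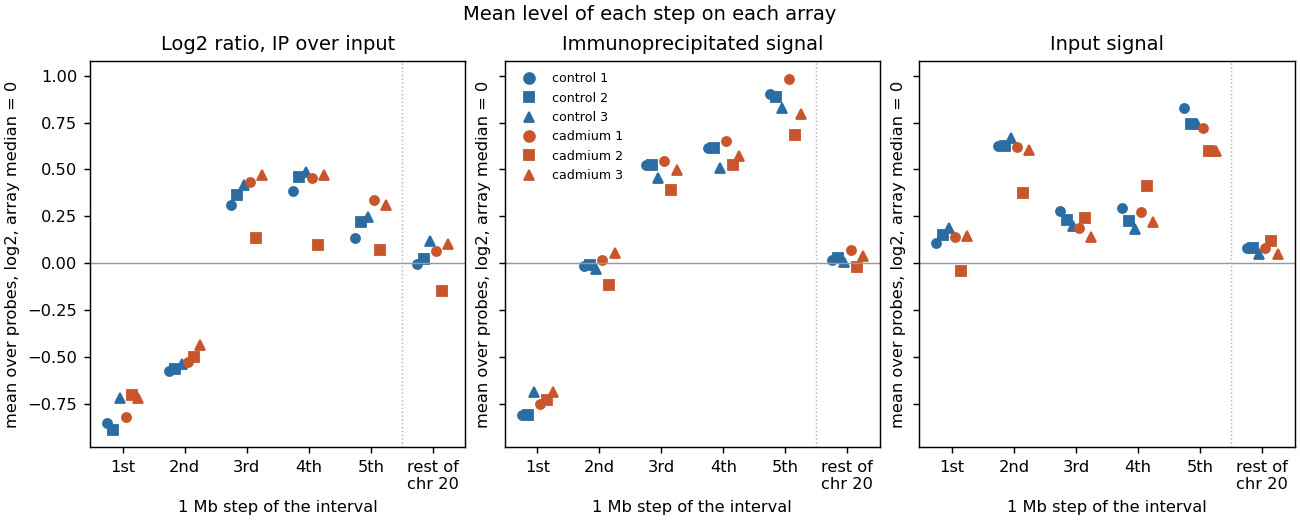
Mean log2 signal over the kept probes of each 1 Mb step of the interval and of the rest of chromosome 20, for the IP over input ratio, the IP signal and the input signal, with 1 point per array (blue control, orange cadmium) and the array median at 0. The ratio was below 0 in the first 2 steps on all 6 arrays and above 0 in the last 3, and the input was highest in the second and the fifth step.

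Relative to the rest of chromosome 20 on the same array, the 5 steps averaged -0.81, -0.55, 0.33, 0.37 and 0.19 in order, with the same sign on 6 of 6 arrays in each. Each gave an exact sign-flip permutation p of 0.03125, the smallest possible, and 0.03125 after Benjamini-Hochberg adjustment over the 5 steps. The signs of the fourth and the fifth step were not stable: with both channels above background they turned to -0.11 and -0.25, and with loess the fourth was 0.093 and missed the threshold (adjusted exact permutation p = 0.0625) while the fifth turned to -0.26. With normexp background correction the fifth was 0.021 (adjusted exact permutation p = 0.281). Among 36 steps of 1 Mb on chromosome 20 with at least 20 kept probes, the first step had the third lowest control ratio. The lowest was the flank just before the interval (-1.84).

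As measured, the 2 low steps differed in which channel lay apart. In the first step the IP signal was 0.77 below the rest of the chromosome on average and the input was 0.039 above it (input exact sign-flip permutation p = 0.375). In the second step the IP signal lay only 0.040 below the rest (exact permutation p = 0.0625), and the input lay 0.51 above it on 6 of 6 arrays. Its control input mean of 0.64 ± 0.024 (SD, n = 3) was the second highest of the 36 steps. In the third and the fourth steps the IP signal was 0.46 and 0.56 above the rest and the input 0.14 and 0.19 above it. In the fifth step both channels were high, by 0.82 for IP and 0.63 for input. For IP and input, every step with the same sign on all 6 arrays had an exact permutation p of 0.03125, or 0.039 after adjustment over the 5 steps.

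The probes differed along the interval in a way that moves with these levels. In the first step 32.0% of kept probes were 45 bases long, against 54.5% in the second, 68.2%, 69.1% and 70.1% in the third, the fourth and the fifth, and 54.5% on the rest of the chromosome. Within the interval the control ratio averaged 0.81 ± 0.053 (SD, n = 3) over 45-base probes and -1.98 ± 0.067 over 60-base probes. On the rest of chromosome 20 these values were 1.16 ± 0.075 and -2.46 ± 0.076. After the mean of each probe length class on each array was removed, the 5 steps lay -0.21, -0.64, -0.053, -0.071 and -0.16 from the rest of the chromosome. All 6 arrays were below the rest in each step, so the sign of the third, the fourth and the fifth step turned. The second step was then the lowest of the 36 steps, and the whole interval lay 0.17 below the rest on 6 of 6 arrays (exact sign-flip permutation p = 0.03125). The adjusted input of the interval stayed 0.16 above the rest, whereas the adjusted IP signal differed by -0.0064 (exact permutation p = 0.344). In the first step the adjusted IP signal was 0.043 below the rest and the adjusted input 0.16 above it, and in the second 0.19 below and 0.45 above, each on 6 of 6 arrays. Thus after the adjustment the input difference was the larger in both low steps. In the fifth step the adjusted IP signal was still 0.40 above the rest.

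**Figure D2:**
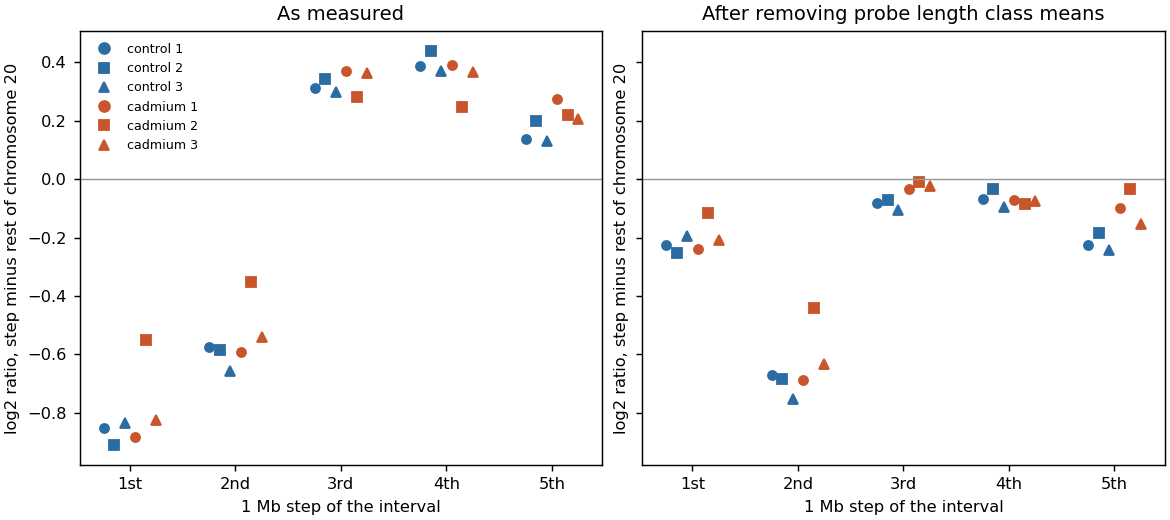
Log2 ratio of each 1 Mb step minus that of the rest of chromosome 20 on the same array, as measured (left) and after subtracting the array's mean of each probe length class (right), with 1 point per array. As measured the last 3 steps averaged 0.33, 0.37 and 0.19, and after the adjustment all 5 steps lay below 0, the second step lowest at -0.64.

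Single tiles spanned a much wider range than the steps. In the first step 15 of 40 tiles were more than 2-fold below the array median (log2 ratio under -1) on all 3 control arrays and 1 was more than 2-fold above it. In the second step the counts were 7 below and 2 above of 20 tiles. The third step had 0 below and 10 above of 47, the fourth 1 below and 9 above of 45, and the fifth 2 below and 3 above of 14. With cadmium the counts more than 2-fold above on all 3 arrays were 0, 0, 4, 1 and 1, and below 11, 5, 0, 0 and 1. The narrower values of cadmium replicate 2 enter each of these cadmium counts. All these counts use ratios without probe length adjustment, and tiles outside the interval were not counted in this way. On the control arrays the SD of tile ratios was 1.02 to 1.06 in the interval and 1.20 to 1.25 on the rest of chromosome 20.

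**Figure D3:**
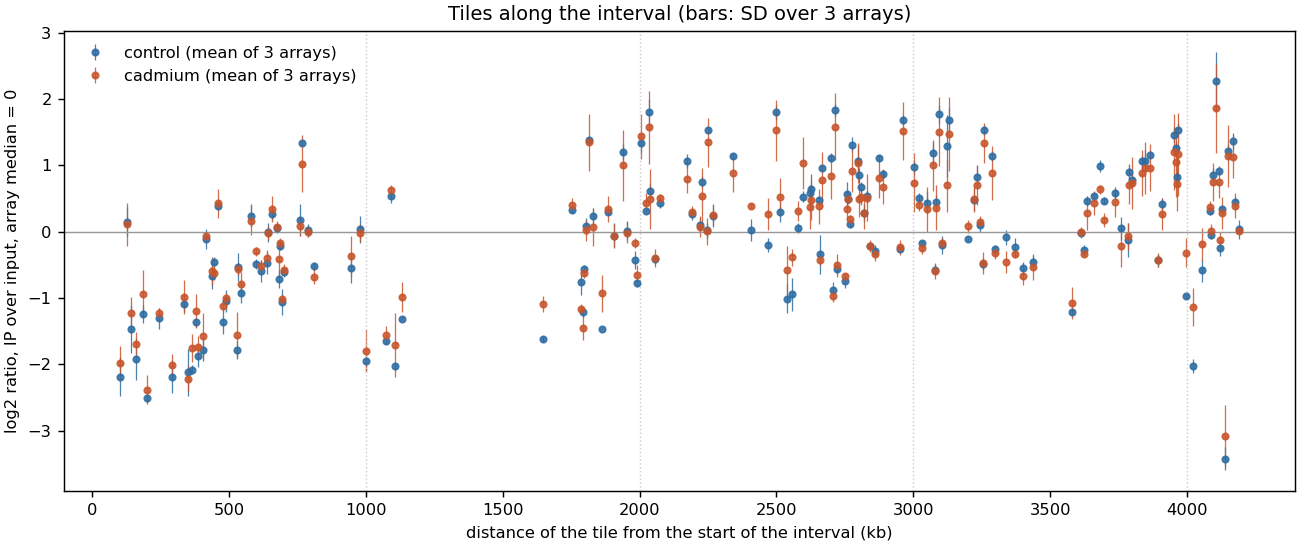
Mean log2 IP over input ratio of each of the 166 tiles against its distance from the start of the interval in kb, for controls (blue) and cadmium (orange), with bars of 1 SD over 3 arrays and dotted lines at each 1 Mb step. Low tiles crowd the left, where 15 of 40 tiles of the first step were under -1 on all 3 controls, and tiles above 1 lie mostly in the last 3 steps.

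The lowest tile of the first step, at chr20:1200352-1202039 with 10 kept probes, had ratios of -2.51, -2.58 and -2.44 in controls and -2.60, -2.17 and -2.38 with cadmium. Its input was close to the array median, between -0.47 and -0.13 on the 6 arrays, while its IP signal lay between -2.97 and -2.62. The highest tile of that step, at chr20:1767241-1768760, had 1.33, 1.39 and 1.29 in controls and 1.31, 0.53 and 1.23 with cadmium. Cadmium replicate 2 was the array nearest to 0 in both tiles, and apart from it the groups lay close together.

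The lowest tile of the whole interval among those with at least 4 kept probes was in the fifth step, at chr20:5140243-5141402. Its ratios were -3.28, -3.37 and -3.61 in controls and -3.41, -2.54 and -3.29 with cadmium. The highest lay in the same step (chr20:5107590-5108948), with 1.93, 2.11 and 2.77 in controls and 2.13, 1.10 and 2.35 with cadmium. Both groups overlapped in these tiles, and cadmium replicate 2 was the array nearest to 0 in each. In the low tile that array also had the lowest input, 0.51 against 1.20 to 1.74 on the other 5.

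In the second step the lowest tile (chr20:2105519-2107179) had ratios of -2.03, -2.06 and -1.99 in controls and -2.19, -1.22 and -1.70 with cadmium. The highest (chr20:2815719-2816719) had 1.32, 1.43 and 1.39 in controls and 1.54, 0.85 and 1.65 with cadmium. In the third step the highest tile (chr20:3713133-3714781) had 1.74, 1.83 and 1.94 in controls and 1.95, 1.02 and 1.79 with cadmium. In each of these 3 tiles the controls lay within the range of the cadmium arrays. In the fourth step the highest tile (chr20:4094686-4097011) had 1.64, 1.76 and 1.92 in controls and 1.87, 0.91 and 1.75 with cadmium, and the lowest (chr20:4578924-4580460) -1.23, -1.21 and -1.18 against -1.32, -0.84 and -1.08. At the edges of the interval, the last tile before it (from 855365) averaged -2.51 in controls and -2.35 with cadmium, and the first inside (from 1102601) -2.19 and -1.98. The last tile inside (from 5188698) averaged 0.035 and 0.012, and the next outside (from 5210917) 0.26 and 0.30.

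Replicates of a group differed as much in the interval as elsewhere on the chromosome. The median over probes of the within-group SD was 0.37 for the ratio in the interval and 0.40 on the rest, 0.30 and 0.31 for IP, and 0.33 and 0.35 for input.

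Averaged over the interval as measured, cadmium and control arrays overlapped in the ratio and in both channels. The ratio difference (cadmium minus control) was -0.0069, under the spread between arrays of a group (pooled SD 0.094), and it was 0.068 and 0.028, both higher with cadmium, within the 2 scan sessions that held both groups. The IP difference was 0.0003. The input values were 0.33, 0.30 and 0.29 in controls and 0.29, 0.27 and 0.26 with cadmium, a difference of -0.033 against a pooled SD of 0.020, and of -0.021 and -0.034 within the scan sessions. On the other autosomes the input difference was -0.022, and on the rest of chromosome 20 it was 0.011. Quantile normalization gave an input difference of -0.00086 for the interval. After probe length adjustment the groups no longer overlapped in the ratio, at -0.15, -0.13 and -0.14 in controls and -0.11, -0.096 and -0.11 with cadmium, a difference of 0.036. The adjusted input did not overlap either (difference -0.032). Measured against the rest of chromosome 20 on the same array, without adjustment, the ratio was -0.037, -0.023 and -0.053 in controls and -0.017, 0.011 and -0.012 with cadmium, again without overlap. These group differences are descriptions, since the contrast chose the interval. In the second and the fifth step the input of the groups did not overlap. It was 0.62, 0.62 and 0.67 in controls and 0.62, 0.37 and 0.61 with cadmium in the second. There the groups nearly touched, at 0.624 on control 2 and 0.619 on cadmium 1, and they overlapped after probe length adjustment. In the fifth it was 0.83, 0.74 and 0.74 in controls and 0.72, 0.60 and 0.60 with cadmium.

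Calls at single tiles are listed next for the ratio and for each channel, as a description. With limma over all tiles, the ratio had an unadjusted p under 0.05 in 18 of 166 tiles of the interval (11 higher, 7 lower with cadmium). The share over all 15846 tiles was 2.44% (326 of 386 higher). Loess within arrays split the calls into 18 higher of 23 (share over all tiles 2.34%). Centring on the median of all probes (3.57%) and the deposited value table (1.63%) each gave 15 higher of 21. Without control replicate 1 the count was 8 (share over all tiles 0.928%), and without control replicate 2 it was 10 (0.959%). The input signal alone had such a p in 18 tiles, 15 of them lower with cadmium, where the share over all tiles was 1.66% (181 of 263 lower). Quantile normalization gave 14 lower of 20 for input (share over all tiles 1.53%). The IP signal alone had such a p in 2 tiles, both lower with cadmium, where the share over all tiles was 3.03% (103 of 480 lower). Its count was 0 without cadmium replicate 2 (share over all tiles 3.09%), 1 without control replicate 1 (1.29%) and 4 without cadmium replicate 3 (2.76%). It was 6 without control replicate 3 (5.2%) or cadmium replicate 1 (8.99%). Because the interval was chosen from this contrast, nothing is read from the size of these counts.

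After Benjamini-Hochberg adjustment over all tiles with limma, no ratio in the interval passed 0.05, as over the whole array (0.0% of tiles, 386 with an unadjusted p under 0.05). With the scan session as a block in the limma fit, 8 tiles of the interval passed, all higher with cadmium. The share over all tiles was 0.189%, and there 29 of 30 were higher. With the session as a random block 1 of them passed (chr20:5020921-5022252, adjusted limma p = 0.0135), and the other 7 had adjusted limma p of 0.0933 to 0.277 with that estimated correlation. These 8 of the 30 tiles on the whole array chose the interval. In the same blocked fit the input signal alone passed in 13 tiles of the interval, where the share over all tiles was 0.233%. The IP signal alone passed in none (0.0% over all tiles). It had an unadjusted p under 0.05 in 6 tiles of the interval, where the share over all tiles was 8.44%. The groups did not overlap for the ratio in 22 tiles (13 higher, 9 lower with cadmium), where the share over all tiles was 8.58% (951 higher, 409 lower). For input they did not overlap in 26 (8 higher, 18 lower), where it was 7.81% (451 higher, 787 lower). By single probes, the ratio had an unadjusted p under 0.05 at 80 of 1279 (60 higher), where the share over all probes was 2.77% (2963 of 3660 higher). The count was 94 for input (67 lower), where the share over all probes was 2.17% (1371 of 2864 lower), and 32 for IP, where it was 2.87%. The median difference of the interval's tiles was near 0 in each channel (-0.026 for the ratio, -0.00094 for IP and -0.016 for input), and close to the medians over all tiles (-0.014, 0.0012 and -0.022). The 5th percentile of the input difference was -0.47 in the interval and -0.24 over all tiles. All 8 tiles that chose the interval lie in that lower tail, with input differences of -1.01 to -0.47. The longer tail is thus largely built in by the choice of the interval.

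**Figure D4:**
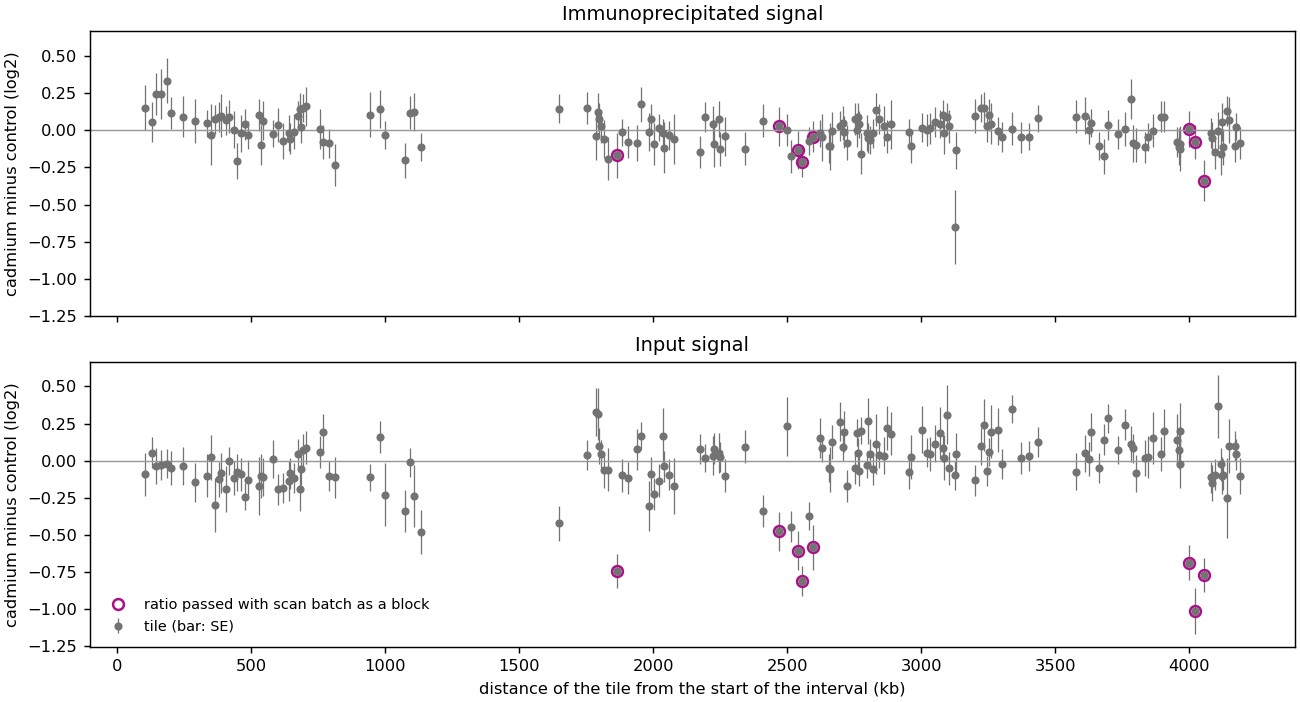
Cadmium minus control difference of the IP signal (top) and of the input signal (bottom) for each of the 166 tiles against its distance from the start of the interval in kb, with bars of 1 SE from limma and rings around the 8 tiles whose ratio passed with the scan session as a block. The ringed tiles lie between -0.34 and 0.03 for IP and between -1.01 and -0.47 for input.

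In the 8 tiles that chose the interval the ratio was higher with cadmium by 0.39 to 0.89 (median 0.52), and the input was lower by 0.47 to 1.01 (median difference -0.71), while the IP difference ran from -0.34 to 0.03 (median -0.11). The input difference was larger than the IP difference in 8 of 8, and the input groups did not overlap in 8 of 8. The ratio is IP over input and picked these tiles, so separated groups in a channel are partly built in by that choice. The values below, within sessions and under other settings, use the same arrays and are no independent support. Without the block each had an adjusted limma p of 0.894 for the ratio. Within the scan session of control 1, control 2 and cadmium 1, the input was lower with cadmium in all 8 by 0.58 to 0.81. Within the session of control 3 and cadmium 3 the input differences in the 8 tiles were -0.97 to -0.25. On cadmium replicate 2, the array scanned alone, they were -1.38 to -0.22 from the control mean. The input was also lower in 8 of 8 after quantile normalization (median -0.65) and after normexp background correction (median -0.55).

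The tile with the largest difference, at chr20:5020921-5022252 with 4 kept probes, had ratios of -2.01, -1.93 and -2.14 in controls and -1.14, -0.85 and -1.41 with cadmium. Its input was 2.32, 2.36 and 2.42 in controls and 1.55, 0.99 and 1.52 with cadmium, a difference of -1.01 ± 0.15 (SE) that makes the control input 2.02 times the cadmium input. Its IP signal was 0.25, 0.35 and 0.12 in controls and 0.34, 0.16 and -0.01 with cadmium. All 3 cadmium arrays were apart from all 3 controls in input, and the groups overlapped in IP. Only 4 of the 7 probes of this tile were kept, and the size of its ratio difference (0.89) depended on the processing. It was 0.61 with outlier spots kept, 0.63 in the deposited table, 0.67 with normexp and 1.24 with loess.

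Both neighbours of that tile also had lower input with cadmium. The tile before it, at chr20:4997456-5001961 with 13 kept probes, had input of 2.01, 2.04 and 1.82 in controls and 1.36, 1.08 and 1.37 with cadmium, and IP of 0.97, 1.04 and 0.66 against 0.85, 1.03 and 0.82. The tile after it, at chr20:5055875-5057204, had input of 1.71, 1.63 and 1.71 in controls and 1.09, 0.91 and 0.75 with cadmium, and IP of 0.90, 0.96 and 1.15 against 0.96, 0.45 and 0.59. Each of the 3 tiles had a control input far above the array median, and in each the groups were apart in input. The IP difference was 0.01 in the tile before and -0.34 in the tile after, whose ratios overlapped between groups. Together they span 59.7 kb.

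A second stretch lay from 3408857 to 3599244, 190 kb with 8 neighbouring tiles, of which 7 had lower input with cadmium and no overlap between groups. The exception, from 3497333, had an input difference of 0.23. Over all tiles the input groups did not overlap in 7.81% (451 higher, 787 lower). The median over the 8 was -0.46 for input and -0.058 for IP. Of the 15 tiles of the interval with lower input and an unadjusted limma p under 0.05, 10 lay in these 2 stretches. The stretches were picked out after their values were seen, as at least 3 such tiles at most 2 places apart. Their counts therefore follow largely from that rule. Among their members, 4 tiles of this stretch and all 3 of the other also chose the interval.

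In the tile at chr20:3555121-3556840, with 9 kept probes, the input was 0.57, 0.53 and 0.39 in controls and -0.26, -0.28 and -0.40 with cadmium. Its ratios were -1.12, -1.05 and -0.67 in controls and -0.29, -0.54 and -0.34 with cadmium, and its IP signal -0.61, -0.59 and -0.44 against -0.62, -0.80 and -0.86. The input difference was -0.81 ± 0.10 (SE), with all 3 cadmium arrays below 0 and all 3 controls above it, and the IP values of the groups nearly touched without overlapping.

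The tile at chr20:3539173-3540672 had input of 0.62, 0.62 and 0.28 in controls and -0.02, -0.01 and -0.27 with cadmium. At chr20:3467553-3469019 the input was 0.69, 0.48 and 0.21 in controls and -0.05, 0.05 and -0.04 with cadmium. At chr20:3597340-3599244 it was 1.20, 1.11 and 1.13 in controls and 0.38, 0.93 and 0.39 with cadmium. In the last of these, cadmium replicate 2 lay between the controls and the other cadmium arrays. The remaining tile of the 8 stood by itself at chr20:2862739-2864096, with input of 0.91, 0.76 and 0.99 in controls and 0.19, -0.00 and 0.24 with cadmium, and ratios of -1.45, -1.47 and -1.46 against -1.01, -1.15 and -0.63.

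**Figure D5:**
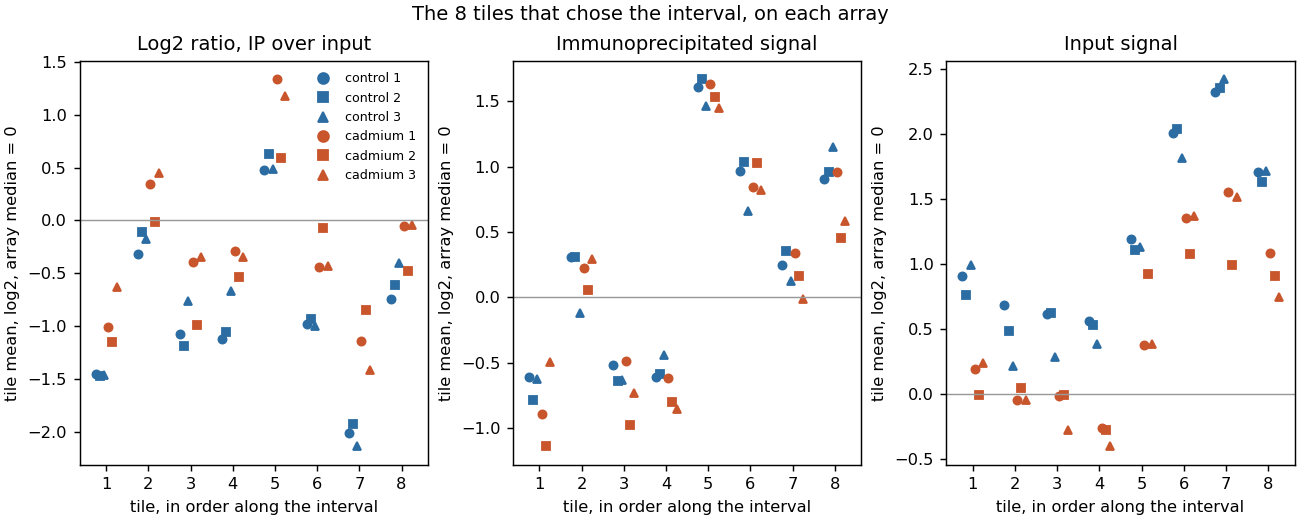
Tile mean of the log2 ratio, the IP signal and the input signal on each array (blue control, orange cadmium) for the 8 tiles that chose the interval, numbered in their order along it. The input values of the 3 cadmium arrays lie below those of the 3 controls in all 8 tiles, and the IP values of the groups overlap in 7 of 8.

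Some tiles differed the other way. The ratio at chr20:4338204-4339988, with 10 kept probes, was -0.19, -0.10 and 0.04 in controls and -0.56, -0.55 and -0.27 with cadmium. Its input was 0.79, 0.71 and 0.76 in controls and 1.09, 1.03 and 1.18 with cadmium, a difference of 0.35 ± 0.094 (SE) with no overlap, and its IP difference was 0.0088. At chr20:2784331-2786012 the ratio was -0.95, -0.76 and -0.58 in controls and -1.21, -1.22 and -1.07 with cadmium. The ratios of both tiles did not overlap between groups, and in both the input difference was larger than the IP difference. The tiles at chr20:3776778-3778363 and chr20:3799871-3801512 had ratio differences of -0.40 and -0.36, with input differences of 0.20 and 0.27 and IP differences of -0.16 and -0.05.

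A tile chosen after its values were seen had the largest IP difference of the interval. At chr20:4124469-4125660, with 4 kept probes, the IP signal was 1.78, 1.17 and 0.61 in controls and 0.58, 0.21 and 0.82 with cadmium, so the groups overlapped, and the input differed by -0.10.

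Runs of at least 3 neighbouring probes, with gaps of up to 500 bases, an unadjusted limma p under 0.05 and one sign of the ratio difference numbered 3 in the interval and 12 on the whole array. All 12 were higher with cadmium. Those in the interval, of 3 probes each, spanned less than 500 bases. Whether the differences end there was not tested. At chr20:2863499-2863943 the input was 1.67, 1.47 and 1.84 in controls and 0.71, 0.16 and 0.74 with cadmium, and the IP difference was -0.17. At chr20:3556475-3556840 the input was 1.81, 1.84 and 1.99 in controls and 0.88, 0.45 and 0.92 with cadmium, with an IP difference of -0.16. At chr20:2648176-2648547 the input was 2.15, 2.04 and 2.08 in controls and 1.73, 1.10 and 1.62 with cadmium, and the IP difference was 0.45. In the first 2 of these runs the IP difference ran opposite to the ratio, and in the last it added to it.

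The tiles where replicates of one group differed most in input were those from 2000215, 2105519 and 5140243. In each, cadmium replicate 2 was the array apart. At the tile from 2000215 its input was -0.55, against 0.12 to 0.38 on the other 5 arrays, and at the tile from 2105519 it was 0.18 against 0.83 to 1.08.

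The genes of the region can be listed by order only, because no rn4 annotation was at hand and no tile was assigned to a gene. In RefSeq's annotation of the later GRCr8 assembly, chromosome 20 holds 48 class I entries of the RT1-A, CE, M, N, S and T groups, of which 32 are protein-coding genes and the others pseudogenes or non-coding RNAs. All 10 class II genes looked for were there (RT1-Ba, RT1-Bb, RT1-Da and others), as were all 5 genes of peptide processing and loading. The latter are Tap1 and Tap2, which pump peptides into the endoplasmic reticulum, Tapbp, which bridges them to class I molecules, and Psmb8 and Psmb9, subunits of the immunoproteasome. Of 30 class III and flanking genes looked for, 29 matched. The order there runs from the RT1-M genes through Flot1, Ddr1 and Pou5f1 to the RT1-CE genes. It then passes Tnf and Lta, which encode cytokines, the heat shock genes Hspa1a and Hspa1b and the complement genes C2, Cfb and C4a. The class II genes with Tap2, Psmb8, Tap1 and Psmb9 among them follow, and Ring1, the RT1-A genes, Tapbp and Daxx come last. Order and copy number of class I genes may differ between that assembly and rn4, so no difference above is tied to a gene.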

How the data were processed

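Per the file headers, the authors scanned 2-colour arrays and the deposited scanner files hold Agilent Feature Extraction 11.0.1.1 intensity values, background-subtracted and dye-normalized, with probe positions in rn4. Per the labels' protocols, IP DNA was labelled Cy5 and input Cy3. The authors' deposited value table holds log2 ratios and was used as an alternative. The submitters' processing notes name limma.

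Processed signals were taken to log2 and centred on each array's median over kept probes, with no loess. A probe was kept if its input was well above background and neither channel was an outlier on any array. Tiles of at least 3 kept probes (15846 of 16174) were fitted with limma 3.58.1 in R 4.3.3 (lmFit, eBayes, Benjamini-Hochberg), tested on simulated data. Levels against the rest of chromosome 20 were tested by exact sign-flip permutation over 6 arrays. The number of arrays limits precision.

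The members and lists were chosen with earlier results of these data known. Tiles were named as each step's highest and lowest control ratio, the 8 that passed with scan session as a block, the 4 largest differences each way without overlap, the 3 widest input ranges within a group, and runs of probes. Alternatives were other normalizations, backgrounds, filters, blocks, summaries and arrays left out.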

Additional observations from a re-analysis of the deposited data

How the results depend on the processing

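The interval's ratio minus the rest of chromosome 20 (-0.022) was -0.17 with loess, -0.073 with normexp, -0.062 with dim probes kept, -0.22 with both channels required above background, -0.047 in the deposited table, -0.17 after length adjustment, -0.025 with medians and -0.036 over tile means, all then past the threshold. Against the other autosomes it turned to 0.16. The third, the fourth and the fifth step turned to -0.053, -0.071 and -0.16 with length adjustment. The fourth and the fifth were -0.11 and -0.25 with both channels above background and 0.093 (no longer past the threshold) and -0.26 with loess, and the fifth was 0.021 with normexp. The interval's IP difference turned to -0.028 with both channels above background and -0.0064 with length adjustment. The first and second steps and the interval's input kept their sign and call in the alternatives run for them (input was not run with equal spread of arrays or the deposited table), except with arrays left out, where 5 arrays allow no p below 0.0625.

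With each array left out, the 5 steps ranged from -0.86 to -0.79, -0.59 to -0.53, 0.32 to 0.34, 0.35 to 0.39 and 0.18 to 0.21, the interval's ratio from -0.028 to -0.015, IP from 0.19 to 0.20 and input from 0.21 to 0.23. The group difference of the ratio ranged from -0.053 to 0.062, of IP from -0.025 to 0.034 and of input from -0.043 to -0.021, and quantile normalization gave -0.00086 for input. Tiles with an unadjusted p under 0.05 ranged from 8 to 20 for the ratio, 0 to 6 for IP and 13 to 22 for input. In that order, the shares over all tiles ranged from 0.928% to 6.85%, 1.29% to 8.99% and 0.839% to 4.14%. Adjusted calls in the interval stayed at 0 for the ratio and IP. For input they were 3 without cadmium replicate 2, where 8 passed over all tiles, and 0 otherwise.

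Array weights gave 30 such tiles for the ratio, where the share over all tiles was 11.5%. Adjusted calls with these weights were 9 in the interval and 27 over all tiles. With scan session as a block they were 8 and 30, and as a random block 1 and 6. Added after the data were seen, the input count was 32 with the scan block, where the share over all tiles was 6.25%. The IP count was 6 with the scan block (share over all tiles 8.44%), and 4 with the replicate block (5.43%) or quantile normalization (3.13%). It was 1 with normexp (0.0757%) or both channels above background (1.78%), and 5 with outlier spots kept (2.71%). The sample titles do not say whether equal replicate numbers mark paired samples. Over tiles, deviations from the group mean correlated at -0.18, -0.10 and 0.37 between arrays of the same number. The first and the last of these pairs also shared a scan session, so the correlations cannot decide on pairing. The replicate block gave 17 ratio tiles (share over all tiles 2.73%) and 0 adjusted calls. Centring on all probes, also added later, gave 21 (share over all tiles 3.57%). The 22 named tiles kept the sign of their ratio difference in 407 of 437 values, and the 8 blocked tiles in all. Causes of these changes were not tested.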
